A study of Mus musculus with 8 samples.

Results

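The Fc gamma receptor genes Fcgr1, Fcgr2b, Fcgr3 and Fcgr4 and the common gamma chain gene Fcer1g were followed in mouse bone marrow-derived macrophages (BMDMs). The 5 genes were matched by symbol to Ensembl identifiers, and all 5 were among the 54532 genes in the deposited tables and among the 14591 genes tested. Fc gamma receptors bind the constant part of IgG and let a macrophage take up or react to antibody-coated targets. Fcgr1 encodes the high-affinity receptor FcγRI, and Fcgr3 and Fcgr4 encode the activating receptors FcγRIII and FcγRIV. These receptors carry no activating tail of their own and signal through the gamma chain dimer encoded by Fcer1g. Fcgr2b encodes FcγRIIB, the inhibitory IgG receptor, whose tail recruits phosphatases that oppose activating signals, so that the balance between both kinds sets how a macrophage responds to immune complexes.

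RNA-Seq of polyadenylated RNA was compared in 8 libraries, 2 in each of 4 groups. BMDMs came from marrow of C57BL/6J-background mice aged 6 to 8 weeks, were grown in medium conditioned by L929 cells, and were wild type (WT) or lacked Trex1 (Trex1-KO), the exonuclease that degrades cytosolic DNA. All groups were incubated for 12 h, WT and Trex1-KO cells with the vehicle DMSO and the other Trex1-KO cells with H151 at 500 nM (Trex1-KO+H151) or with SN-011 (Trex1-KO+SN-011). Both compounds are antagonists of STING, the adaptor that carries the signal of the DNA sensor cGAS to type I interferon. The SN-011 dose is not in the labels, and the methods describe it as the same as that of H151. The knockout is a germline, whole-body deletion. The WT mice were bought in whereas the Trex1-KO mice were bred from heterozygotes, so colony and genotype cannot be told apart. The protocol text of the SN-011 libraries also differs from that of the others, so their handling cannot be told apart from the compound. The study describes the libraries of a group as independent experiments, while the labels do not say whether they came from separate animals. The p-values measure only the spread between these samples.

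Total counts ran from 11845470 to 17284863 per library, and between 20185 and 21127 genes had at least 1 count. Trex1 itself had 0 counts in all 8 libraries, WT included, so its counts could not check the genotype. Of 24 interferon-stimulated genes set beside the receptors, 23 were higher in Trex1-KO than in WT. Levels are given as CPM, each count divided by its TMM-normalised library size. Summed over 12 macrophage markers, the level was between 36779 and 39923 CPM in every library, and all 12 were detected. Marker sums of other cell types differed between genotypes. Over 8 stromal cell markers the sum was 2555 to 2794 CPM in WT and 1015 to 1433 CPM in the 6 Trex1-KO libraries, treated or not. Over 12 neutrophil markers it was 24.0 to 25.3 CPM in WT and 86.5 to 122 CPM in the others, with Ly6g at no more than 3 counts in every library. Against WT, 6 of 7 tested stromal markers were called lower and 7 of 8 tested neutrophil markers higher in Trex1-KO, beside 7.11% lower and 9.27% higher over all tested genes. With H151 against vehicle, 1 of these 8, Mmp8, was called, higher (log2 fold change 1.47, edgeR FDR = 0.000127), beside 0.384% higher over all tested genes. The median over the 8 neutrophil markers was 0.03. With SN-011 against vehicle 0 of the 8 were called, beside 2.33% of all tested genes, and the median was 0.22. The 8 B cell markers summed to at most 12.9 CPM and the 10 NK and T cell markers to at most 0.933 CPM. The 9 mast cell and basophil markers reached 3.62 CPM and the 7 dendritic cell markers 4.30 CPM at most, with Mcpt4, Cma1 and Cd209a at 0. In Trex1-KO against WT, 2 of 3 tested dendritic cell markers were called higher, Xcr1 (log2 fold change 2.88) and Clec9a (2.60), and the third, Zbtb46, had a log2 fold change of -1.32 (edgeR FDR = 0.0951). Of 2 tested B cell markers Ebf1 was called lower (-1.05), and Cd79b had a log2 fold change of 0.58 (FDR = 0.258). Among macrophage markers 3 of 12 were called higher, Cd68 (0.44), C1qb (0.23) and Adgre1 (0.19). The part of these other cells in the receptor results was not tested, and in RNA from a whole culture fewer cells of a type and less RNA per cell cannot be told apart.

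On GRCm38, Fcgr1 (ENSMUSG00000015947) lies on the minus strand of chromosome 3, from 96282909 to 96293969. The other genes share a stretch of 275.7 kb on chromosome 1. There Fcgr2b (ENSMUSG00000026656, 170958617 to 170976547, minus strand) is followed by Fcgr4 (ENSMUSG00000059089, 171018920 to 171029761, plus strand) after a gap of 42.4 kb. Fcgr3 (ENSMUSG00000059498, 171051174 to 171064935, minus strand) begins 21.4 kb further on. Fcer1g (ENSMUSG00000058715, 171229572 to 171234365, minus strand) lies 164.6 kb beyond Fcgr3. Counts were summed over all exons of each gene. The longest transcripts of Fcgr2b and Fcgr3 were 96.5% identical over 509 aligned bases, but they had no exact stretch of 150 bases in common. Fcgr2b alone overlapped the exons of another gene, with 155 bases (2.68% of its exonic length) opposite the predicted gene Gm38204.

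Because Fcgr1 and Fcgr4 rose most in Trex1-KO cells, the bases just before their RefSeq start sites are shown, with a shorter stretch of Fcgr2b for contrast. Sequences are 5′ to 3′ on the strand of the gene (RefSeq, GRCm38.p6), and capitals mark motif matches.
Fcgr1, chr3:96293970-96294119, minus strand: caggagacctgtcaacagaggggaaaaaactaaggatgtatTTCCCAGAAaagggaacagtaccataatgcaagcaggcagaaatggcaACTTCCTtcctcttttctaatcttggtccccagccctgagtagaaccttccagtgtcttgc
Fcgr4, chr1:171018776-171018919, plus strand: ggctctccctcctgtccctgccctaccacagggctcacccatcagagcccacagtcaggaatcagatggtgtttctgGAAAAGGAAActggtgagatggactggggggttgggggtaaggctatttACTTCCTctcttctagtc
Fcgr2b, chr1:170976087-170976116, minus strand: gaccgtttctTTTCACTTCCccatttggac

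Windows of 250 bases before the start site were searched on both strands, and the 5 genes had 6 such windows, at least 1 each. The GAS motif (TTC and GAA with 3 bases between them) matched only Fcgr1, from 109 to 101 bases before the start. The ISRE motif, bound by IRF and ISGF3 factors (a pair of GAAA with 2 bases between them), matched only Fcgr4, from 73 to 64 bases before the start. A match to the PU.1 motif AGGAAGT, read on the opposite strand, stood 61 to 55 bases before the start of Fcgr1 and 24 to 18 bases before that of Fcgr4. PU.1 is an ETS factor of the myeloid lineage. Fcgr2b matched only the ETS-IRF composite (GGAA and GAAA with 2 bases between them), from 35 to 26 bases before its start and on the opposite strand. That RefSeq start, at 170976071, lies inside the annotated gene, which reaches 170976547 on the minus strand, so the window does too. None of the 4 motifs, which can overlap one another in sequence, matched in any window of Fcgr3 or Fcer1g. Of 27025 genes with a window, 8.13% held the GAS motif, 3.46% the ISRE, 8.80% the PU.1 motif and 2.68% the composite. A match is a description of letters and not a site of binding.

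**Figure D1:**
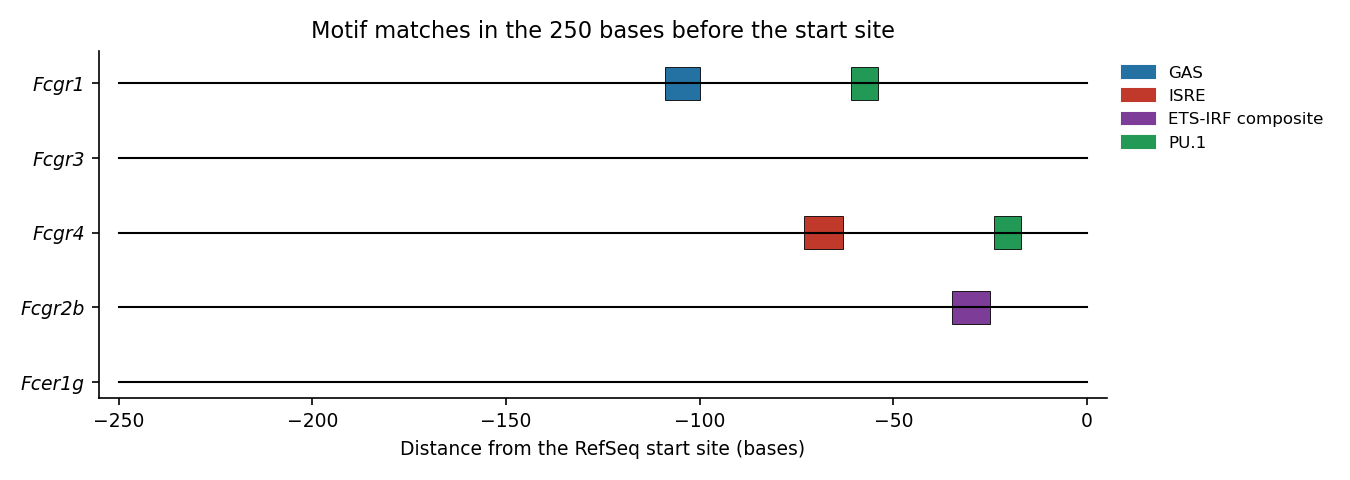
Motif matches in the 250 bases before the RefSeq start site of each gene, drawn to scale by distance from the start in bases. The GAS match lies in Fcgr1 alone and the ISRE match in Fcgr4 alone, each with a PU.1 match nearer the start, and the Fcgr3 and Fcer1g lines are empty.

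Trex1-KO and WT cells were compared to ask how the receptor genes stood when cytosolic DNA was not degraded. Among 14591 tested genes, 16.4% were called, that is, had a false discovery rate (FDR) under 0.05 in edgeR's quasi-likelihood test, and 3 of the 5 receptor genes were called, all higher in Trex1-KO. These were Fcgr4, Fcgr1 and Fcer1g. Fcgr4 had the 285th highest and Fcgr1 the 428th highest log2 fold change of all genes tested.

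Fcgr4 was at 49.3 and 59.2 CPM in the WT libraries and at 149.0 and 149.2 CPM in the Trex1-KO libraries. Even the lower Trex1-KO value was well above the higher WT value, and the libraries of both antagonist groups lay between them. The rise was 2.75-fold, with a log2 fold change of 1.46 ± 0.08 (SE, n = 2 per group) and an edgeR FDR of 3.21e-08. In WT, Fcgr1 was at 241 and 225 CPM, and in Trex1-KO at 493 and 533 CPM. Its rise was 2.20-fold, with a log2 fold change of 1.14 ± 0.08 (SE) and an edgeR FDR of 2.66e-07. Both encode receptors for IgG2a and IgG2c among the mouse subclasses, and for both every Trex1-KO library, treated or not, lay above every WT library.

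Fcer1g, the signalling chain, stood at 481 and 485 CPM in the WT libraries and at 608 and 538 CPM in the Trex1-KO ones. The groups did not overlap, but the Trex1-KO libraries lay farther from each other than the lower one lay from WT. The log2 fold change was 0.25 ± 0.07 (SE, edgeR FDR = 0.0186), which is 1.19-fold. Without Trex1-KO replicate 1 it was 0.14 and no longer called (adjusted p = 0.274), and it was not called without either WT library (adjusted p = 0.131 and 0.105).

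Fcgr3, the low-affinity activating receptor, had 852 and 899 CPM in the WT libraries and 973 and 934 CPM in the Trex1-KO ones. The ranges were separate, but the log2 fold change of 0.12 (95% interval 0.01 to 0.23) was not called (edgeR FDR = 0.133). Fcgr2b, the inhibitory receptor, had 490.5 and 595 CPM in the WT libraries, against 464 and 471 CPM in the Trex1-KO ones. It was the only one of the 5 genes with a lower mean in Trex1-KO, and the WT libraries were far apart. The log2 fold change was -0.22 (95% interval -0.38 to -0.06, edgeR FDR = 0.0667) and was not called. Without WT replicate 1 it was -0.36 and was called (adjusted p = 0.00253), and without WT replicate 2 it was -0.08. It was also called without either H151 library (adjusted p = 0.0294 and 0.0321), which are outside this contrast but change the shared estimate of spread and the number of genes tested. In all it was called in 6 of 16 alternative settings, with the lowest adjusted p (0.000870) under a filter at 1 count.

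**Figure D2:**
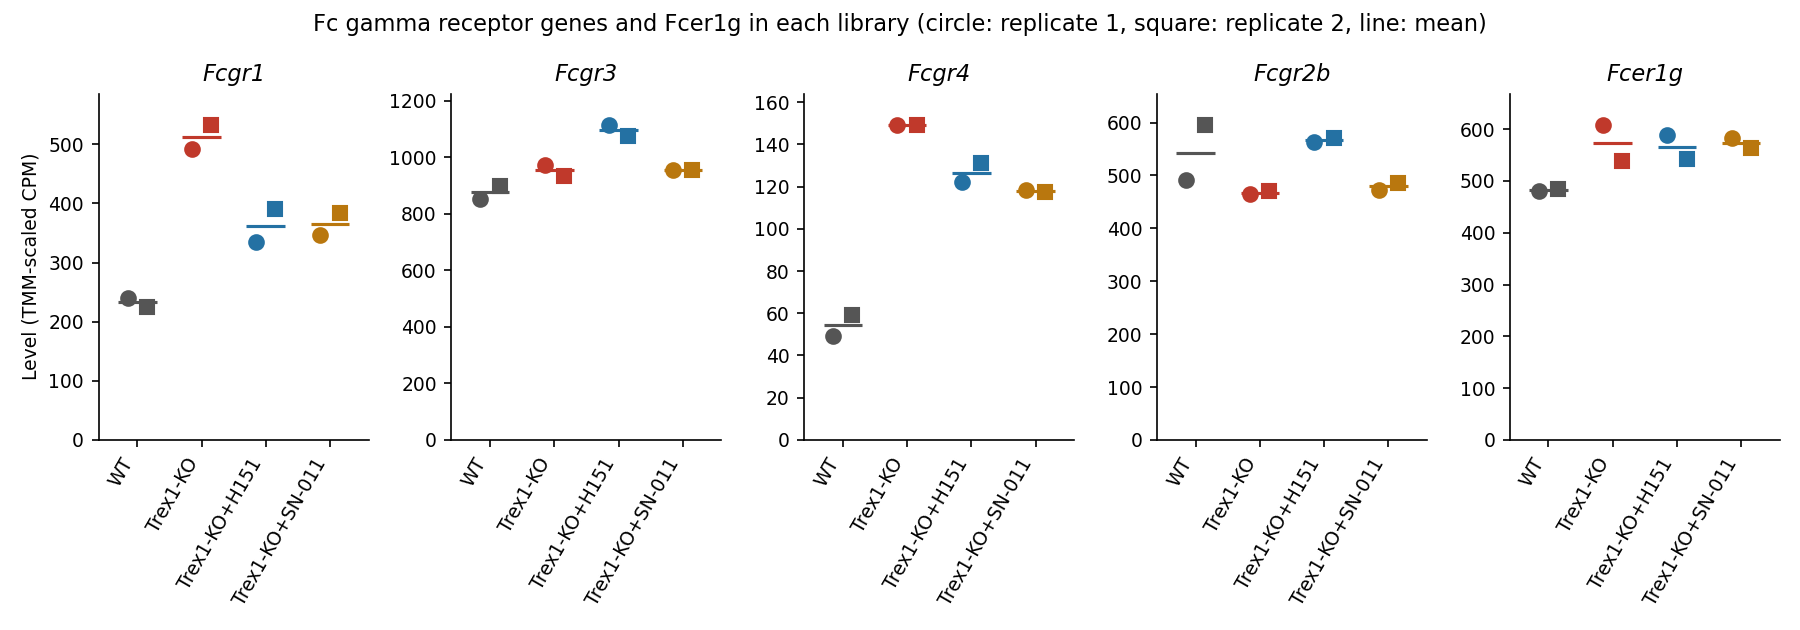
Level of each gene in each library in TMM-scaled CPM, on an axis from 0, with circles for replicate 1, squares for replicate 2 and a line at the mean of 2. Fcgr1 and Fcgr4 step up from WT to Trex1-KO (233 to 513 and 54.2 to 149.1 CPM in the mean) and lie between them with either antagonist, while Fcgr2b and Fcgr3 are highest in mean with H151.

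H151 and its vehicle were compared in Trex1-KO cells to ask which receptor genes depended on STING. Here 2.23% of all tested genes were called and 1 of the 5 receptor genes, Fcgr1, was called. Fcgr1 was at 335 and 391 CPM with H151, below both vehicle-treated Trex1-KO libraries and above both WT libraries. It fell to 0.708-fold of the vehicle level, a log2 fold change of -0.50 ± 0.08 (SE, edgeR FDR = 0.00256). Fcgr4 was at 122 and 131 CPM, also below both vehicle libraries, but its log2 fold change of -0.24 (95% interval -0.40 to -0.07) was not called (edgeR FDR = 0.206).

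The other receptors had higher means with H151. Fcgr2b was at 562 and 570.5 CPM, above both vehicle libraries. Its log2 fold change was 0.28 (95% interval 0.12 to 0.44, edgeR FDR = 0.0919), not called. Fcgr2b was called here in 4 of 16 alternative settings. These were a filter at 1 count, the replicate number as a block, and the fits without either WT library, which is outside the contrast. Fcgr3 was at 1114 and 1075 CPM, the highest level of any of the 5 genes on this scale, which does not account for gene length. Its log2 fold change was 0.20 (95% interval 0.09 to 0.31, edgeR FDR = 0.0733), also not called. Fcer1g was at 589.5 and 542 CPM and overlapped the vehicle libraries (log2 fold change -0.02, 95% interval -0.16 to 0.12).

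SN-011 and the same vehicle libraries gave 2.33% of all genes called and 2 of the 5 receptor genes, Fcgr1 and Fcgr4, both lower. Since the vehicle libraries are shared with the H151 comparison, the results are set side by side and are not independent. Fcgr1 was at 346 and 384 CPM with SN-011, again between the WT and vehicle ranges. It fell to 0.712-fold of vehicle (log2 fold change -0.49 ± 0.08 SE, edgeR FDR = 0.00289). Fcgr4 was at 118 and 117 CPM and fell to 0.791-fold (log2 fold change -0.34 ± 0.08 SE, edgeR FDR = 0.0321). Both calls were lost without SN-011 replicate 1 (adjusted p = 0.108 for Fcgr1 and 0.265 for Fcgr4). That of Fcgr4 was also lost without any of the other libraries of the contrast, namely SN-011 replicate 2 (0.255) and vehicle replicates 1 (0.134) and 2 (0.0935), while its log2 fold change stayed between -0.35 and -0.31 in all 16 alternative settings.

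Fcgr2b, Fcgr3 and Fcer1g stood near the vehicle level with SN-011. Fcgr2b was at 473 and 485 CPM, just above the vehicle range, with a log2 fold change of 0.04 (95% interval -0.12 to 0.20). Fcgr3 was at 956 and 954 CPM and Fcer1g at 583 and 564 CPM, both within their vehicle ranges. Their 95% intervals on the log2 scale were -0.11 to 0.11 and -0.14 to 0.14, so that larger changes in either direction lie outside them.

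The antagonists were compared with each other directly, with the doses as described in the methods and the same 12 h. Only 0.158% of all tested genes were called between them and 0 of the 5 receptor genes by edgeR's quasi-likelihood test, by edgeR's exact test or by DESeq2. At an unadjusted p under 0.05, which 1300 of all 14591 tested genes reached, there were 2, Fcgr2b and Fcgr3. Fcgr2b had a log2 fold change of -0.24 for SN-011 over H151 (95% interval -0.40 to -0.08, edgeR FDR = 0.401), and Fcgr3 one of -0.20 (95% interval -0.31 to -0.09, edgeR FDR = 0.261). Fcgr1 overlapped (log2 fold change 0.0085, 95% interval -0.16 to 0.18), and so did Fcer1g (0.02, 95% interval -0.12 to 0.16). Fcgr4 was lower in both SN-011 libraries, with a log2 fold change of -0.10 (95% interval -0.27 to 0.06).

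Treated Trex1-KO cells were also set beside WT to see how far from WT each gene remained. With H151, 11.8% of all genes and 4 of the 5 receptor genes were called, all higher than in WT. Fcgr4 was 2.33-fold (edgeR FDR = 4.66e-07), Fcgr1 1.56-fold (FDR = 0.000116) and Fcgr3 1.25-fold (FDR = 0.000816) the WT level. Fcer1g had a log2 fold change of 0.23 (edgeR FDR = 0.0363). Fcgr2b overlapped WT, with a log2 fold change of 0.06 (95% interval -0.10 to 0.22).

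With SN-011, 11.7% of all genes and 3 of the 5 receptor genes were called, all higher than in WT. The log2 fold changes were 1.12 for Fcgr4 (edgeR FDR = 1.09e-06), 0.65 for Fcgr1 (FDR = 0.000104) and 0.25 for Fcer1g (FDR = 0.0236). Those of Fcgr3 (0.13, FDR = 0.152) and Fcgr2b (-0.18, FDR = 0.155) were not called. Fcer1g was the weakest call here and in the H151 comparison, and each was lost without either WT library (adjusted p from 0.114 to 0.206). The call with SN-011 was also lost without either SN-011 library (0.1803 and 0.115), and the call with H151 without H151 replicate 1 (0.237) or either SN-011 library (0.0633 and 0.0846). In all, Fcer1g was called in 8 of 16 alternative settings with H151 and in 11 of 16 with SN-011. Fcgr2b was called lower than WT in SN-011-treated cells without WT replicate 1 (-0.33, adjusted p = 0.00827), and in 3 of 16 settings in all.

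**Figure D3:**
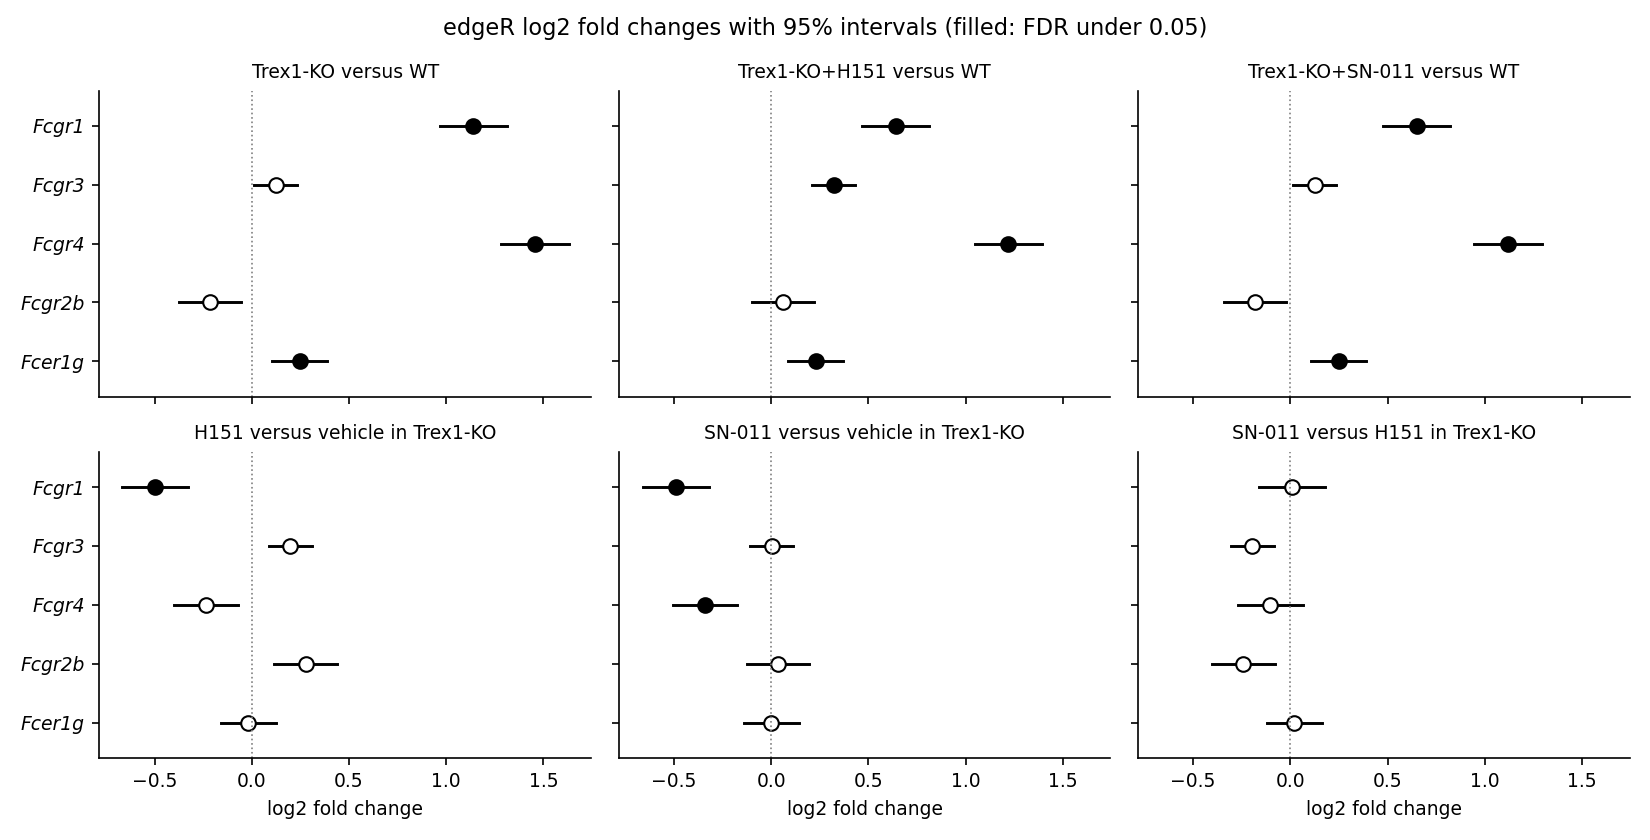
edgeR log2 fold changes (x axis) of the 5 genes in the 6 comparisons, with bars for 95% intervals and filled circles for an FDR under 0.05. Fcgr1 and Fcgr4 lie right of 0 in the 3 comparisons with WT, and Fcgr1 lies near -0.50 in both comparisons of an antagonist with vehicle.

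Levels between genes were compared as RPKM, that is, CPM per kilobase of exonic length. In WT the order was Fcer1g (552 ± 3.24 RPKM, SD, n = 2), Fcgr3 (504 ± 19.3), Fcgr2b (93.8 ± 12.8), Fcgr1 (89.9 ± 4.28) and Fcgr4 (43.2 ± 5.54). Fcgr2b and Fcgr1 did not differ beyond their spread. In Trex1-KO cells Fcer1g (656 ± 56.6) and Fcgr3 (549 ± 15.5) still led, followed by Fcgr1 (198 ± 10.9), Fcgr4 (118.7 ± 0.106) and Fcgr2b (80.8 ± 0.859), so that the inhibitory receptor was last.

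With H151 the order was Fcer1g (647 ± 38.3 RPKM), Fcgr3 (631 ± 15.8), Fcgr1 (140.1 ± 15.4), Fcgr4 (100.7 ± 5.06) and Fcgr2b (97.8 ± 0.988). Fcer1g did not differ from Fcgr3 beyond the spread, nor Fcgr4 from Fcgr2b. With SN-011 it was Fcer1g (656 ± 15.9), Fcgr3 (550.1 ± 0.774), Fcgr1 (141 ± 10.4), Fcgr4 (93.8 ± 0.600) and Fcgr2b (82.8 ± 1.51). The place of Fcgr2b depended on its length. With the longest transcript (3544 bases) in place of all exons (5790 bases), its level was 131.9 RPKM in Trex1-KO and 153 RPKM in WT, above Fcgr4 in every group. On that scale it also stood above Fcgr1 in WT (89.9 RPKM) and with H151 (159.8 against 140.1 RPKM), so the order of Fcgr1, Fcgr4 and Fcgr2b given by all exons holds for that length only.

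The make-up of the 4 receptors within a library does not depend on scaling between libraries. Fcgr3 took 68.6% to 69.3% of their summed RPKM in WT and 57.0% to 59.0% in Trex1-KO. Fcgr1 took 11.5% to 13.1% in WT and 20.05% to 21.8% in Trex1-KO, and Fcgr4 5.55% to 6.24% and 12.5% to 12.6%. The share of Fcgr2b was 12.0% to 13.6% in WT and 8.44% to 8.62% in Trex1-KO, so that it and Fcgr3 had lower shares in Trex1-KO. The shares depend on the gene length used. With the longest transcripts Fcgr2b took 15.3% to 17.3% in WT and 11.3% to 11.5% in Trex1-KO, and each share moved in the same direction.

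With antagonists the shares moved part of the way. Fcgr1 took 13.4% to 15.5% with H151 and 15.5% to 16.96% with SN-011, in each case below the vehicle range and above WT. Fcgr4 took 10.1% to 10.7% with H151 and 10.7% to 10.96% with SN-011. Fcgr2b took 10.1% in both H151 libraries and 9.50% to 9.58% with SN-011, between vehicle and WT. The summed RPKM of the 4 receptors itself was 707 to 755 in WT, 944 to 949 in Trex1-KO, 965 to 973 with H151 and 860.3 to 875 with SN-011.

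Ratios of an activating to the inhibitory receptor showed the same contrast in each library. Fcgr4 over Fcgr2b was 0.458 and 0.464 in WT and 1.46 and 1.48 in Trex1-KO, with means of 1.03 ± 0.0413 (SD, n = 2) with H151 and 1.13 ± 0.0279 with SN-011. Fcgr1 over Fcgr2b had means of 0.971 ± 0.178 in WT, 2.45 ± 0.109 in Trex1-KO, 1.43 ± 0.143 with H151 and 1.70 ± 0.0949 with SN-011. For both ratios no 2 of these groups overlapped. The ratios themselves depend on the length used. With the longest transcripts Fcgr4 over Fcgr2b was 0.2803 and 0.284 in WT and 0.893 and 0.906 in Trex1-KO, below 1, and Fcgr1 over Fcgr2b was 0.517 and 0.671 in WT and 1.45 and 1.55 in Trex1-KO. Differences between groups on the log2 scale do not change with the length.

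Fcgr3 over Fcgr2b was 5.41 ± 0.534 in WT and 6.80 ± 0.265 in Trex1-KO, without overlap. It was 6.45 ± 0.227 with H151 and 6.65 ± 0.1304 with SN-011. The 3 activating receptors summed over their shared chain Fcer1g gave 1.15 ± 0.0304 in WT and 1.33 ± 0.107 in Trex1-KO, where the libraries were widely spaced. This ratio was 1.35 ± 0.0868 with H151, near the vehicle mean, and 1.20 ± 0.0428 with SN-011, nearer the WT mean. With 2 libraries against 2, a two-sided exact permutation test cannot give a p below 0.333, and none of the 30 ratio comparisons could pass a threshold (smallest adjusted p = 0.417).

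**Figure D4:**
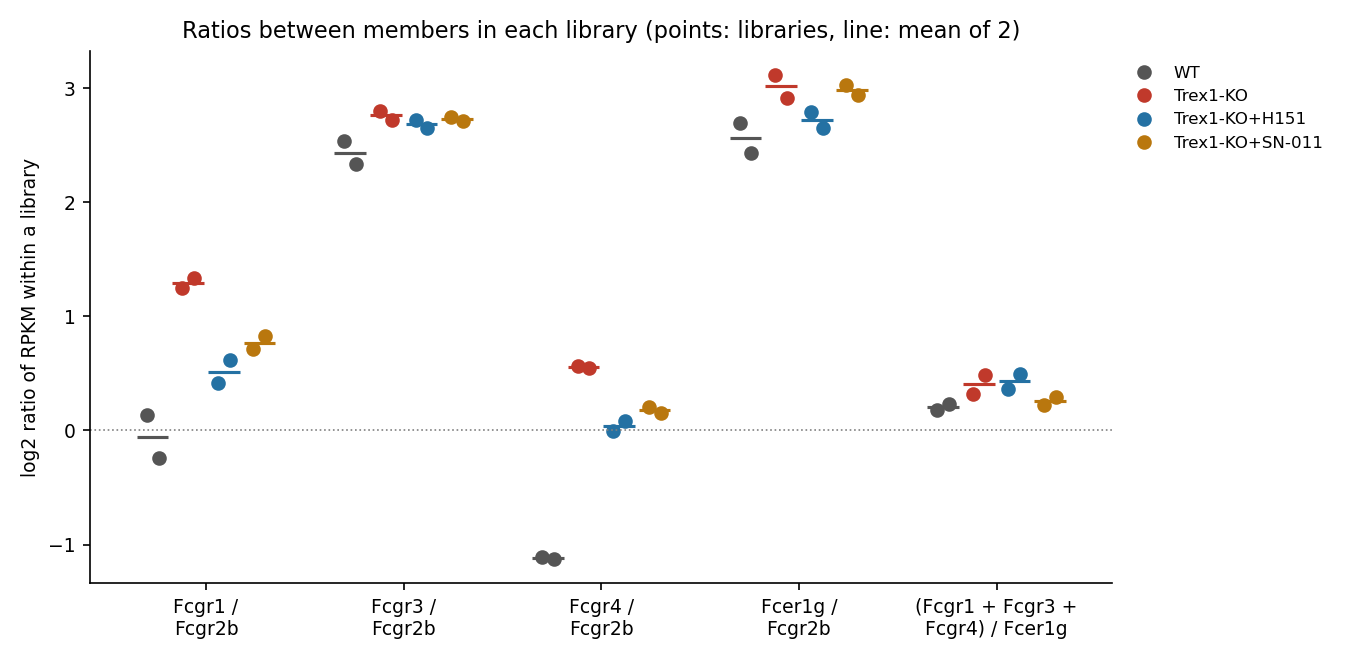
Log2 ratios of RPKM within each library, with 1 point per library, a line at the mean of 2 and colours for the groups. For Fcgr1 and Fcgr4 over Fcgr2b the WT points lie lowest and the vehicle-treated Trex1-KO points highest, with both antagonist groups between them, whereas the ratio of the activating receptors to Fcer1g spans a narrow range.

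Across the 8 libraries Fcgr1 and Fcgr4 had the most alike patterns among the 5 genes, with a Pearson's r of 0.923 between log2 CPM values. Fcgr1 and Fcgr2b had an r of -0.54 and Fcgr2b and Fcgr4 one of -0.32. These correlations describe 8 libraries that share 4 groups and a vehicle. Among the 10714 genes whose mean log2 CPM reached 2, Oas3, an interferon-induced oligoadenylate synthetase (r = 0.994), H2-T22, an MHC class Ib gene (0.993), and Sdc3, a syndecan (0.992), were most like Fcgr1. Oas3 had group means of 80.6 CPM (WT), 422 CPM (Trex1-KO), 198 CPM (H151) and 198 CPM (SN-011), a wider span than that of Fcgr1. Most like Fcgr4 were Xdh, the xanthine dehydrogenase gene (0.996), Atrip (0.995), a partner of the checkpoint kinase ATR that adjoins Trex1, and Mill2 (0.992). Fcgr3 was most like Rasa3 (0.989), Kmt2d (0.980) and Dtx4 (0.979), Fcer1g most like Man2b2 (0.981), Otud1 (0.979) and Bloc1s6 (0.975), and Fcgr2b most like Chml (0.947), Cptp (0.922) and Zfp846 (0.920).

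Of 16 other receptors for immunoglobulin and related genes, 7 were tested. In Trex1-KO against WT 2 of these were called, beside 16.4% of all tested genes, and 1 with each antagonist, beside 2.23% (H151) and 2.33% (SN-011). Trim21, the cytosolic antibody receptor, was at 35.2 ± 3.75 CPM (SD, n = 2) in WT and rose to 65.4 ± 3.48 CPM in Trex1-KO. Its log2 fold change was 0.89 (edgeR FDR = 2.13e-05). It fell with H151 (log2 fold change -0.58, FDR = 0.00389) and with SN-011 (-0.55, FDR = 0.00560). Fcgrt, the neonatal Fc receptor that salvages IgG from degradation, was lower in Trex1-KO than in WT, at 368 ± 20.4 against 465 ± 35.5 CPM (log2 fold change -0.34, FDR = 0.00316).

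Of 14 other receptors listed as partners of the gamma chain, 11 were in the tables and 7 were tested. In Trex1-KO 3 were called higher and 1 lower, beside 9.27% and 7.11% of all tested genes. The 7 included Clec4a2, which also stood on the list of inhibitory regulators described below, and pairing was not checked gene by gene. Clec4e (Mincle), a receptor for mycobacterial glycolipid, had 35.3 ± 25.1 CPM in the WT libraries and 81.1 ± 7.59 CPM in the Trex1-KO ones (log2 fold change 1.21, edgeR FDR = 0.0134). It fell to 24.0 ± 3.81 CPM with H151 (-1.75, FDR = 0.00731) and to 15.8 ± 0.223 CPM with SN-011 (-2.36, FDR = 0.000971). Clec4e was the only gene of the list called with either antagonist, beside 2.23% (H151) and 2.33% (SN-011) of all tested genes. Cd300ld (0.69) and Pira2 (0.89) were higher in Trex1-KO, and Clec4n (Dectin-2), a receptor for fungal mannans, was lower (-0.69, FDR = 4.15e-05). Clec4d was called lower with SN-011 than with H151 (-0.33, FDR = 0.0455), beside 0.158% of all tested genes. Of the 4 adaptors related to the gamma chain, 2 were tested. In Trex1-KO against WT, Tyrobp (DAP12) had a log2 fold change of 0.11 (edgeR FDR = 0.424) and Hcst (DAP10) one of 0.17 (FDR = 0.638).

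Downstream of activating receptors, 35 of 36 listed kinases and adaptors were tested, and 13 were called higher and 3 lower in Trex1-KO, where 9.27% of all tested genes were higher and 7.11% lower. Their median log2 fold change was 0.15, against -0.0020 over all tested genes. The Src-family kinase Fgr (1.32, edgeR FDR = 0.00148) and the adaptor Lat2 (0.93, FDR = 7.31e-06) rose most. Src (-0.48, FDR = 0.0496), Plcg1 (-0.46) and Vav2 (-0.27) fell. With H151, Lcp2, the adaptor SLP-76 (-0.32), and Lyn, which phosphorylates receptor tails (-0.27), were among the 3 called lower, beside 1.84% lower over all tested genes. With SN-011, 5 were called, all lower, beside 2.22% lower over all tested genes, among them Fgr (-0.99, FDR = 0.0390) and Lcp2 (-0.33).

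The next list, named inhibitory regulators here, held phosphatases and regulators of Fc receptor signalling. A place on it does not show that a gene opposes activating signals, and this holds for Ptprc too. Of 26 listed, 25 were tested, and 12 were called higher and 1 lower in Trex1-KO, beside 9.27% higher and 7.11% lower over all tested genes, with a median log2 fold change of 0.24. Cd300lf (0.93, edgeR FDR = 2.79e-05), Pirb (0.72, FDR = 7.22e-07) and Lilrb4a (0.60, FDR = 8.83e-06), which carry inhibitory tails, rose most, and the sialic acid receptor Cd33 fell (-0.30, FDR = 0.0293). Pirb was lower with H151 (-0.24, FDR = 0.0421) and with SN-011 (-0.29, FDR = 0.00954). With SN-011, Lilrb4a (-0.25) and Ptprc, which encodes CD45 (-0.24), were also called lower. Over all tested genes 1.84% were called lower with H151 and 2.22% with SN-011.

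All 6 phagocyte oxidase subunits, which make the oxidative burst that Fc receptors can trigger, were tested. In Trex1-KO, where 9.27% of all tested genes were called higher, 3 rose, namely Cybb, the catalytic subunit, from 1161 ± 143 to 1749 ± 6.80 CPM (log2 fold change 0.59, edgeR FDR = 3.34e-05), Ncf4 (0.34) and Rac2 (0.23). Cybb fell with H151 (-0.35, FDR = 0.0131) and with SN-011 (-0.35, FDR = 0.0116), and no other subunit was called with either, beside 2.23% of all tested genes with H151 and 2.33% with SN-011. The interferon-stimulated genes had larger changes than the receptors. Their median log2 fold change was 1.80 in Trex1-KO against WT, -0.99 with H151 and -1.01 with SN-011, and 21 of 24 were called lower with each antagonist. Against WT, 17 of 24 were called higher with H151 and 19 of 24 with SN-011, beside 6.79% and 6.18% of all tested genes.

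**Figure D5:**
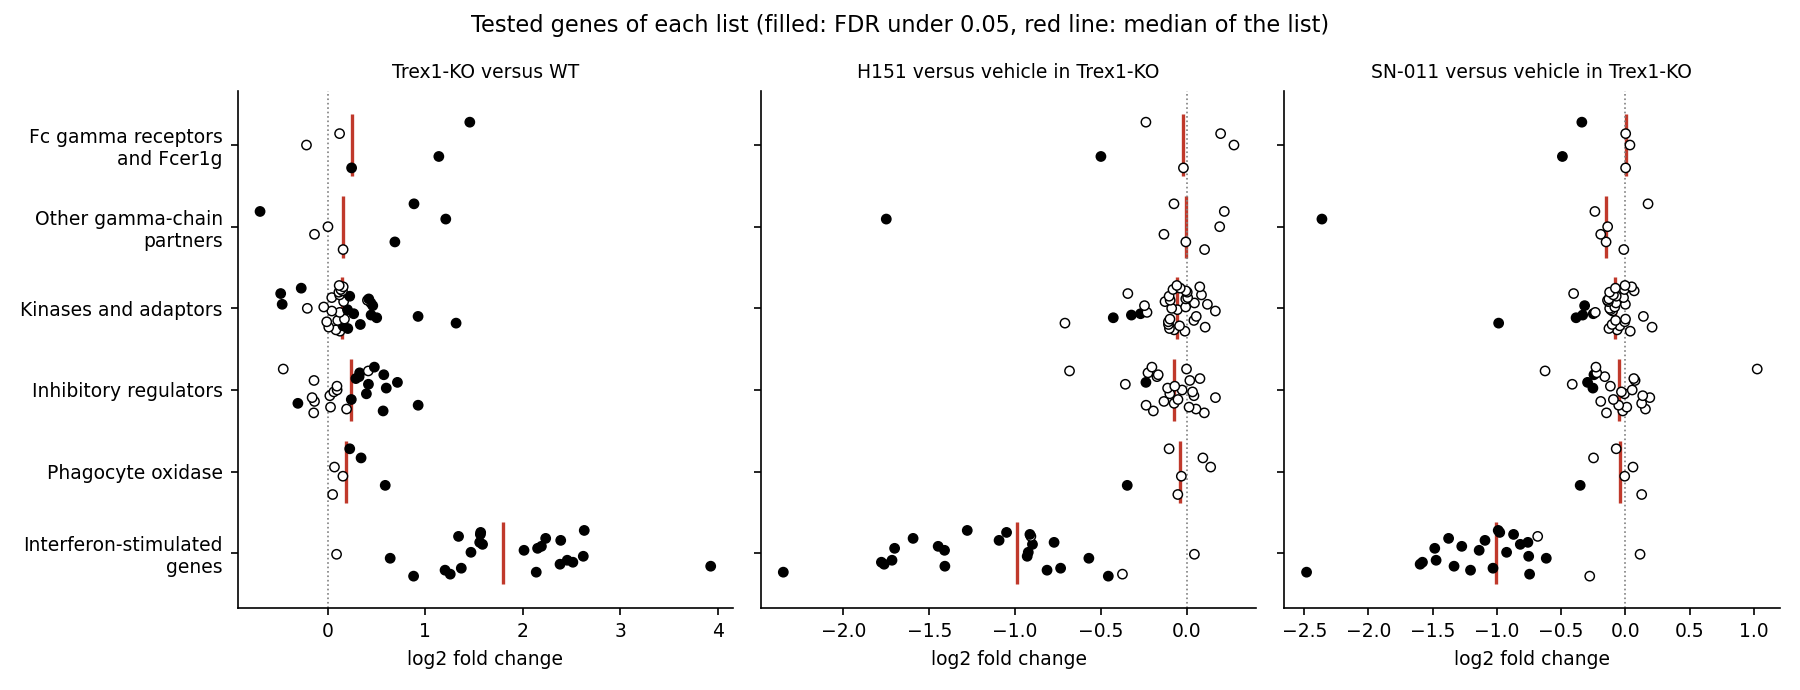
Log2 fold changes of the tested genes in each list (points, filled for an FDR under 0.05) with the median of the list as a red line, in 3 comparisons with their own x axes. Fcgr1 and Fcgr4 lie right of the other 3 genes of their row in Trex1-KO against WT, kinases, adaptors and inhibitory regulators lie mostly right of 0 with medians of 0.15 and 0.24, and the interferon-stimulated genes have the widest shift, with a median of 1.80.

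Genes beside the receptors were counted to see whether their surroundings had moved. Within 500 kb of the 4 genes on chromosome 1, 39 other genes were tested and 11 were called in Trex1-KO against WT, 9 higher and 2 lower, beside 16.4% of all tested genes. They included F11r (log2 fold change 1.44), Nectin4 (1.32) and Slamf7 (1.26), which encode surface adhesion or signalling proteins, and the median over all 39 was 0.03. Within 500 kb of Fcgr1, 36 genes were tested and 2 were called, beside the same 16.4%, Mtmr11 higher (0.86) and Lix1l lower (-0.35). Among both sets of neighbours Nectin4 was the only gene called with H151 (-0.49, edgeR FDR = 0.00318), beside 2.23% of all tested genes. With SN-011 0 of either set were called, beside 2.33% of all tested genes.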

How the data were processed

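The authors trimmed reads with Trimmomatic, aligned them with HISAT2 and counted uniquely mapped pairs per gene. The deposited values are raw counts. The submitters' processing notes name mm10 and HTSeq where the methods name featureCounts. Versions, annotation release and strand setting are not given in the sources used here. Reads of Fcgr2b and Fcgr3 in near-identical exons may not map uniquely. Genes were matched to GENCODE M21 (GRCm38), which held 54495 of 54532 identifiers, and promoters are RefSeq's.

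Groups and replicate numbers came from the sample titles. Counts were filtered with filterByExpr (minimum count 10, minimum total 15), normalised by TMM and fitted in 1 quasi-likelihood model of 4 groups over 8 libraries (R 4.3.3, edgeR 4.0.16, limma 3.58.1), with two-sided tests and Benjamini-Hochberg adjustment over 14591 genes. The biological coefficient of variation was 0.0656. SEs are approximate, derived from each log2 fold change and its F statistic. DESeq2 1.42.0 was an alternative. Alternatives changed the normalisation, the filter, the block, the libraries, the tool or the gene length.

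Simulated counts for Trex1-KO against WT (14182 genes) were drawn with a shared dispersion for all genes. The change was the same in every Trex1-KO library, treated or not. Of genes changed by a log2 fold of 0.5, 44.9% were called, with 92.7% at 1 and 100% at 2. Spread that differs between genes was not simulated, so these rates are not the power for the receptor genes. The lowest count of any receptor gene was 671. Members and gene lists were chosen with earlier results of these data known. The text names the 5 genes, for each the 3 genes most like it, and up to 3 called rises and 3 called falls per list and comparison. Neighbouring genes were counted, and those named, with Ly6g, Mcpt4, Cma1, Cd209a, Zbtb46, Cd79b, Tyrobp and Hcst, were chosen after their values were seen. Some items that the rule would name are not reported here.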

Additional observations from a re-analysis of the deposited data

How the results depend on the processing

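Results were recomputed under 16 alternative settings. Fcgr1 and Fcgr4 in Trex1-KO against WT were called in all 16, as was Fcgr1 with H151, and no called change turned direction. With H151 the count of receptor genes called was 1 in the main fit, where 325 of all 14591 tested genes were called. It went to 2 with total counts only (Fcgr3 added), beside 299 of 14591. With a filter at 1 count it went to 3 (Fcgr2b and Fcgr3 added), beside 525 of 27065. The replicate block gave 2 (Fcgr2b added), beside 412 of 14591, and leaving out single libraries also moved the count. With SN-011 it went from 2, beside 340 of all 14591 tested genes, to 1 with total counts only, beside 298. Leaving out single libraries moved it too. Between the antagonists it went from 0, beside 23 of all 14591 tested genes, to 2 with the filter at 1 count, beside 266 of 27065. The cause was not tested.

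With total counts only, the median of all genes in Trex1-KO against WT was -0.09, and calls split into 946 higher and 1598 lower, against 1352 and 1038. Fcer1g was then not called (0.16, adjusted p = 0.127) and Fcgr2b was (-0.30, adjusted p = 0.0125).

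The labels do not say what the replicate numbers stand for, and deviations of same-numbered libraries correlated at 0.19 between vehicle and H151, -0.0055 between vehicle and SN-011 and -0.02 between antagonists. With the replicate block Fcgr2b was called lower in Trex1-KO (-0.21, adjusted p = 0.0355) and higher with H151 (0.28, adjusted p = 0.0313).

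Uncalled log2 fold changes near 0 changed sign. With H151, Fcer1g was 0.0068 with total counts only and ranged from -0.10 to 0.073 without single libraries. With SN-011, DESeq2 size factors gave -0.0012 for Fcgr3 and -0.0019 for Fcer1g, and DESeq2 gave -0.0012 and -0.0019. Fcer1g was -0.00055 with the stricter filter and -0.00043 with the 2 groups alone. Without single libraries, Fcgr3 ranged from -0.027 to 0.034 and Fcer1g from -0.084 to 0.094 with SN-011, and Fcgr1 from -0.10 to 0.12 and Fcer1g from -0.041 to 0.083 between antagonists. Fcgr2b ranged from -0.085 to 0.20 for Trex1-KO+H151 against WT. Fcgr2b and Fcgr3 summed as 1 feature gave 0.0026 in Trex1-KO and 0.016 in Trex1-KO+SN-011 against WT, and 0.23 (adjusted p = 0.0142) in Trex1-KO+H151.

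In the lists, calls ranged from 9 to 18 for kinases and adaptors and from 9 to 13 for inhibitory regulators in Trex1-KO. With H151 they ranged from 1 to 5 and from 0 to 3, and with SN-011 from 0 to 5 in both. For the gamma-chain partners they ranged from 3 to 5, from 0 to 2 with H151, and stayed at 1 with SN-011. Calls over all tested genes moved between settings as well. In Trex1-KO against WT they were 2390 of 14591 in the main fit, 1838 of 14591 with DESeq2 and 2738 of 27065 with a filter at 1 count. With H151 they were 325, 314 and 525, and with SN-011 340, 320 and 679. The part of this in the list ranges was not tested. For Trex1-KO+H151 against WT, Fcer1g was also not called with total counts only (adjusted p = 0.135), with the 2 groups alone (0.0542) or with DESeq2 (0.0503). Fcgr2b was called for Trex1-KO+SN-011 against WT with the filter at 1 count (0.00970) and with the 2 groups alone (0.0386).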
